A study of Drosophila melanogaster with 3 samples.

Results

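The wing vein patterning genes plexus (px), thickveins (tkv) and scribbler (sbb) carried 8 of the 559 summits of Collier (Col) binding in the deposited list. The members were all summits whose gene label, read up to the bracket that holds the fold enrichment, was px, tkv or sbb. This gave 4 summits for px, 1 for tkv and 3 for sbb. The study mapped Col binding by chromatin immunoprecipitation and sequencing (ChIP-seq), which recovers the DNA fragments cross-linked to a protein, in whole Drosophila melanogaster embryos of stage 13 to 14. The Col-IP was made with a mix of 3 monoclonal antibodies against Col, the mock-IP with anti-HA, directed at an epitope tag, and the input was chromatin DNA without precipitation. The embryos used for the IPs carried a lacZ reporter transgene driven by a col enhancer in which the native Col site had been replaced by the consensus defined in vitro. Each condition was 1 library, the IP libraries from pooled IPs, so no variation among IPs can be given. The list holds no read counts, and the depth and precision behind each summit are unknown. It holds summits of the Col-IP alone, and values of the mock-IP and of the input at these summits were not analysed here. The wing role in the genes' description comes from the larva and pupa, whereas binding was measured in embryos, and whole embryos do not show in which cells a summit was bound.

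Veins of the fly wing form in stripes set by signalling pathways, and the tissue between them becomes intervein. Col, the fly member of the EBF family and also named knot (kn), acts downstream of Hedgehog in the central intervein. The product of px is a nuclear protein that keeps intervein cells from becoming vein. The tkv gene encodes the type I receptor for Decapentaplegic (Dpp), a secreted BMP-type ligand, and sbb, also known as brakeless or master of thickveins, encodes a nuclear corepressor that lowers tkv expression in the wing.

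The listed Col site of the tkv summit is shown first because it holds the full core CCCNNGGG, and the sites of other vein and Dpp genes are shown so that complete and incomplete cores can be set beside it. Each site is 15 bases long and was found by the authors in windows around the summits with a motif search, so a site near a summit is not independent of the summit's position. The sites are written as in the study's supplementary site list, with coordinates of dm3. Their strand in the genome was not checked. Capitals mark the bases that equal the 6 fixed bases of CCCNNGGG, which stands at positions 5 to 12 of the site.
tkv (2L:5245576-5245590): aattCCCtgGGGatc
dally (3L:8847875-8847889): aagcCCCaaGGGgat
Dl (3R:15145127-15145141): ttctCCCgcGGGagc
vn (3L:5831535-5831549): aagtCCCaaGGGgcc
pnt (3R:19164305-19164319): ttgtCCCatGGGtcc
caup (3L:12633134-12633148): gtgtCCCctGaGatt
vvl (3L:6829807-6829821): gagcCCCctGaGtgc
ci (4:81375-81389): gattCCCaaGaGact
The sites of tkv, dally, Dl, vn and pnt hold all 6 core bases. Those of caup, vvl and ci each hold 5, and in all 3 of these the middle base of the right arm is the one that differs from the core. As written, the left arm CCC is complete in all 8 printed sites. The core reads the same on both strands, so which arm is left or right depends only on the strand on which a site is written.

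The receptor gene tkv had a single Col summit, at position 5245592 of chromosome arm 2L (dm3), with a fold enrichment of 4.24. Fold enrichment is the linear ratio that the peak caller assigned to each summit, over a background that the sources used here do not name. This summit ranked 105 of 559, within the top 18.8% of the list, and the 314 labels with a single summit had a median fold enrichment of 2.77. Among those labels, 47 had a higher value than tkv. Its neighbours in rank were CG15283 at 4.26, Rh50 at 4.25, CG1402 at 4.23 and Trim9 at 4.18, steps of a few hundredths that cannot be ordered without replicates. The study's annotation classed the tkv summit, like all summits of px and sbb, as intragenic. The region of tkv was among those that the study cloned in front of a reporter. The study reported that mutating the Col site lowered this reporter specifically in the lymph gland, the blood-forming organ of the larva. It called the decrease beyond doubt in only part of the embryos. The summit of tkv was isolated, with the nearest summit of another label, CG14020 (fold enrichment 2.32), 269510 bp away. That distance was larger for 82 of the 558 summits with a neighbour on their arm, whose median was 69375 bp.

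The tkv site lay close to its summit, with its centre 9 bp from it. It matched 10 of the 12 fixed bases of the consensus defined in vitro for EBF proteins, against a median of 8 over all listed sites, and 79 of the 542 sites (14.6%) matched 10 or more. Over all 15 bases the listed site most like it was that of IntS6, with 2 mismatches, and 24 sites tied at 3 mismatches. Of these 24, cnc and CG13293 are shown because their summits had the highest fold enrichments among those whose sequence can be given.
tkv: aattCCCtgGGGatc
IntS6 (X:5638979-5638993): aattCCCagGGGgtc
cnc (3R:19037647-19037661): aattCCCcaGGGacc
CG13293 (3L:6075776-6075790): aattCCCtgGGGtgt
As listed, the 3 sites shown have the full core and the 4 bases before it in common with tkv. For its cnc reporter, however, the study writes a T, marked as a polymorphism, in place of the second C of the core. The fold enrichment was 4.24 for tkv, 2.23 for IntS6 (rank 472), 8.03 for cnc (rank 8) and 5.83 for CG13293 (rank 36), the values of cnc and CG13293 being high by the way they were chosen. Over all 24 sites with 3 mismatches, the fold enrichment ran between 1.99 and 8.03 with a median of 3.41, against a median of 2.85 for the whole list.

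The repressor of vein fate px had 4 summits on chromosome arm 2R (dm3), and 1 of them stood far above the others. The summit at position 18420912 had a fold enrichment of 9.48 and held rank 3 in the whole list, at 3.33 times the list's median. The summit at 18399352 had 3.46 (rank 179), that at 18412952 had 2.32 (rank 441) and that at 18398042 had 2.24 (rank 465). The 2 low summits lay under the lower quartile of all summits, 2.38. Values this low were shared, since 4 summits of the list had exactly 2.32 and 7 had 2.24. By highest summit, px was exceeded by 2 of the other labels, and among the 13 labels with 4 or more summits only Oaz, at 16.17, was higher.

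The distance in height between the first and the second summit set px apart from most labels with several summits. The ratio of highest to second was 2.74 for px, the fourth largest of the 95 labels with 2 or more summits, whose median was 1.25 and highest 2.79. The labels with 4 summits closest to px in highest fold enrichment were more even. For pum, a translational repressor, the values were 7.83, 5.74, 3.86 and 3.43, a ratio of 1.36. For jing, which encodes a zinc finger protein, they were 6.06, 5.2, 5.17 and 4.94, a ratio of 1.17. No test was made of these differences, since summits of 1 library are not replicates.

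The px summits were spread over 22870 bp, close to the median span of 21730 bp of the 29 labels with 3 or more summits. From the first summit, the gaps were 1310, 13600 and 7960 bp, against a median gap of 4850 bp over the 150 gaps within labels. The highest summit was the last of the row and the second highest lay in the close pair at the other end. The nearest summit of another label belonged to CG10384 (fold enrichment 2.94), between 48940 and 71810 bp away.

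**Figure D1:**
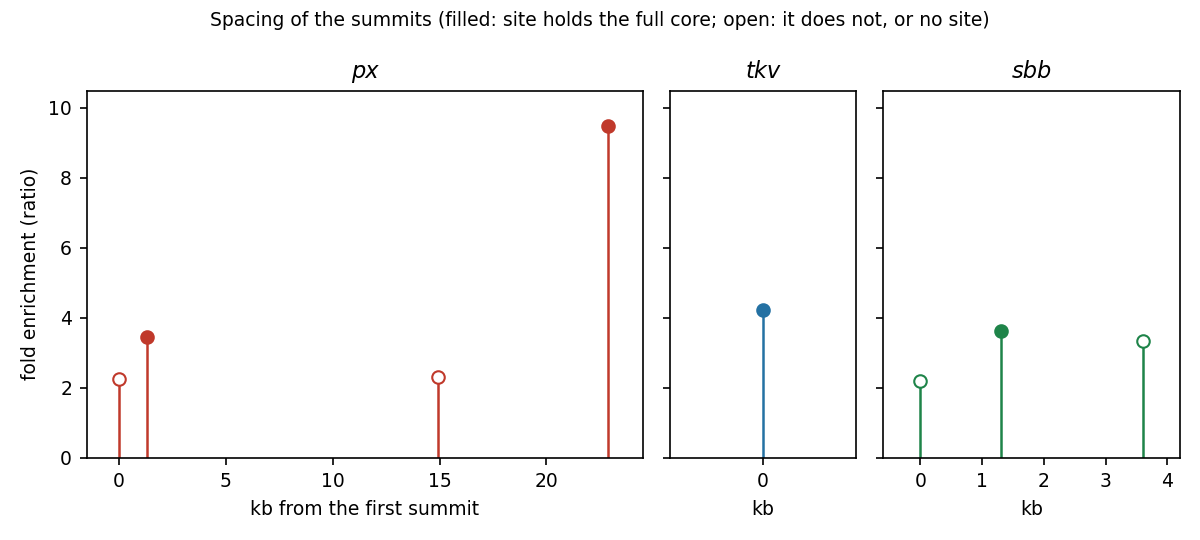
Distance in kb from the first summit of each label (horizontal) against fold enrichment, a ratio (vertical), for px, tkv and sbb, with 1 stem per summit. Filled points mark sites with the full core, and each label's highest summit is filled: 9.48 for px, 4.24 for tkv and 3.63 for sbb.

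The corepressor gene sbb had 3 summits on chromosome arm 2R (dm3) with no summit standing far above the rest. The summit at 14226632 had a fold enrichment of 3.63 (rank 155) and that at 14228932 had 3.33 (rank 198). The third, at 14225322, had 2.2 (rank 478), a value that 6 summits of the list shared. The ratio of highest to second was 1.09, placing sbb at 82 of 95. The labels with 3 summits closest in highest fold enrichment were Best4, with 3.66, 3.11 and 3, and CG43202, with 3.6, 2.37 and 2.05.

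The sbb summits were packed within 3610 bp, the third shortest span of the 29 labels with 3 or more summits. The gaps were 1310 and 2300 bp, and the shorter one equalled the shortest gap of px. Over the whole list, 29 of 150 gaps were that short or shorter. CG43202, which spans 5510 bp, was also the nearest other label to sbb, 34030 to 37640 bp from its summits. The label just more compact than sbb was kn, the gene of Col itself.

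**Figure D2:**
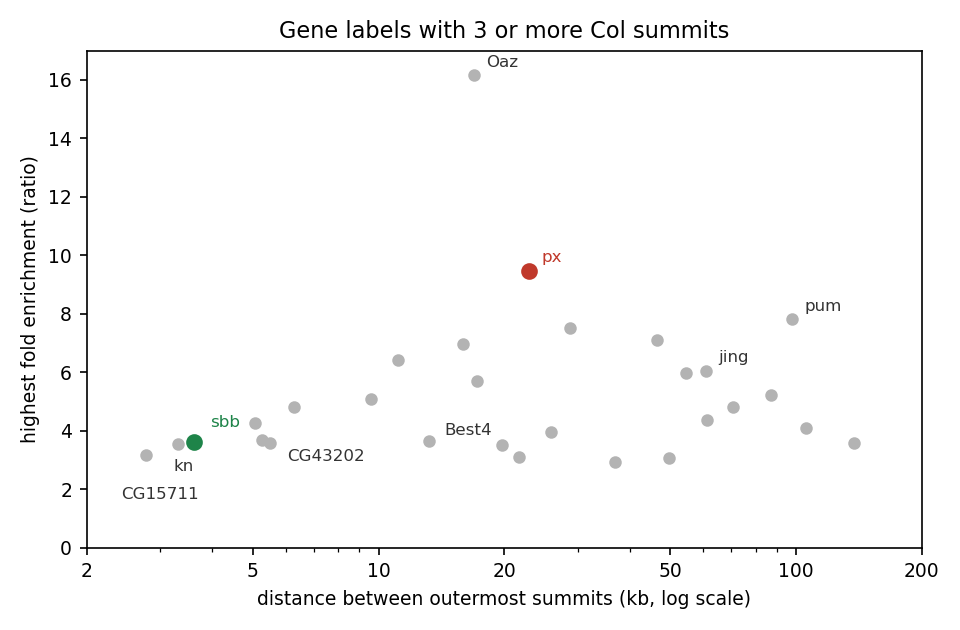
Distance between the outermost summits in kb on a log scale (horizontal) against the highest fold enrichment, a ratio (vertical), for the 29 labels with 3 or more summits, with 1 point per label. At 22870 bp and 9.48, px lies under Oaz alone in height, while sbb, at 3610 bp and 3.63, lies among the most compact labels.

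Set beside the whole list, the 8 summits ran between 2.2 and 9.48, and all summits between 1.94 and 16.17. Their median fold enrichment was 3.4, against 2.85 for all 559 summits. A fold enrichment of at least 3 was reached by 5 of 8 members, against 251 of all summits (44.9%, 95% Wilson interval 40.8 to 49%, which covers counting error over summits only). Above the list's upper quartile of 3.74 lay the highest px summit and the tkv summit, and under its lower quartile of 2.38 lay 3 members, 2 of px and 1 of sbb.

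**Figure D3:**
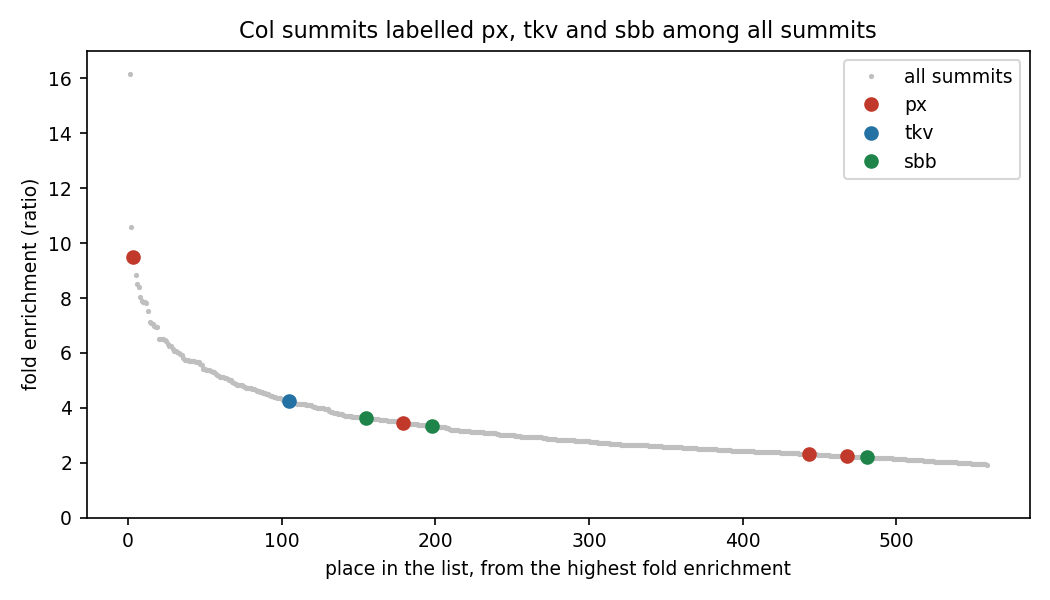
Place in the list by fold enrichment (horizontal) against fold enrichment, a ratio (vertical), for all 559 summits in grey and the px, tkv and sbb summits in colour. The highest px summit stands at rank 3 and the tkv summit at 105, while the lowest sbb summit stands at 478.

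Of the 8 summits, 7 had the centre of a listed Col site no more than 100 bp away, against 542 of all summits (97%). The exception was the lowest sbb summit, at 2.2, which had no listed site. Within 25 bp, a site was found for 4 of 8 members, against 349 of all summits (62.4%). These were the highest px summit at 10 bp, tkv at 9 bp and the 2 higher sbb summits at 3 and 8 bp. The other px sites lay 36, 41 and 84 bp from their summits.

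The full core CCCNNGGG stood in the sites of 4 of the 8 members, against 233 of all summits (41.7%). The longer form CCCNNGGGA stood in the same 4 sites, against 203 of all summits (36.3%). Both patterns were read on either strand of the 15 bases. The 4 summits were the 2 higher ones of px, that of tkv and the highest of sbb, so the highest summit of each gene had the full core. Over all labels with several summits, which include px and sbb but not tkv, this was so for 42 of 95 (44.2%). The 3 remaining sites, 2 of px and 1 of sbb, each held 5 of the 6 core bases. Against the consensus defined in vitro, the sites of px matched 10, 8, 9 and 8 of 12 bases from highest to lowest summit, and the 2 sites of sbb matched 7 and 8. The sbb site with the full core was thus the poorest match of the 7 to the in vitro consensus.

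Members with the full core had fold enrichments of 9.48, 4.24, 3.63 and 3.46, a median of 3.94, and members without it 3.33, 2.32, 2.24 and 2.2, a median of 2.28. The 2 sets did not overlap, but the gap between them was only that between 3.46 and 3.33. In the whole list the sets overlapped over most of their range: the 233 summits with the core had a median of 3.07 and reached down to 1.95, and the 326 without it had a median of 2.78 and reached up to 9.38. The core was present in 77 of the 140 summits above the upper quartile (55%) and in 45 of the 142 at or under the lower quartile (31.7%).

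**Figure D4:**
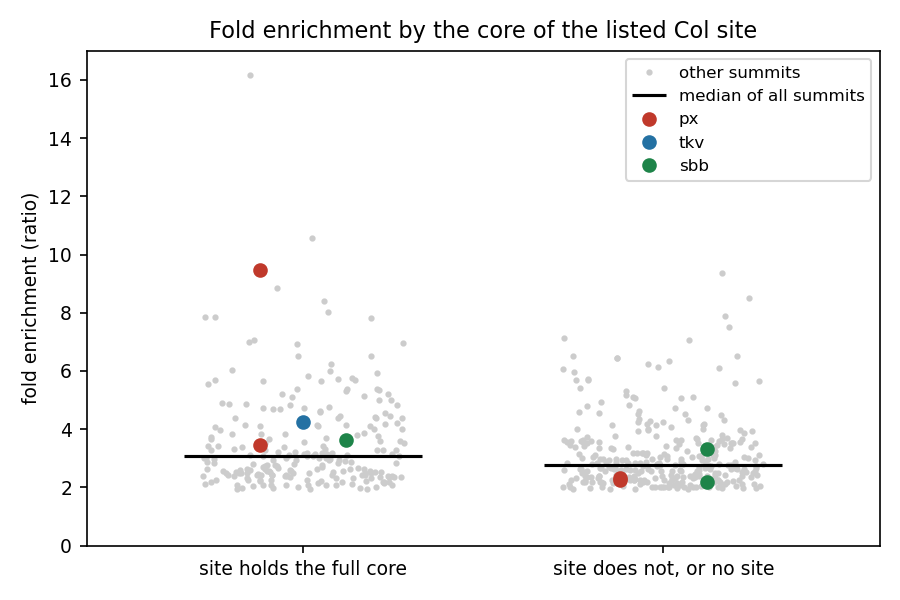
Fold enrichment, a ratio (vertical), of summits whose listed site holds the full core (left) or does not, or that have no site (right), with other summits in grey, the median of all summits of each side as a black line, and px, tkv and sbb in colour. The 4 coloured points on the left lie between 3.46 and 9.48 and the 4 on the right between 2.2 and 3.33, with the px points at 2.32 and 2.24 nearly on top of each other.

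Among the 24 genes of a list of Dpp signalling, by role from ligands and receptors to Smads and targets, 3 had a summit (12.5%), namely tkv, sbb and dally. For comparison, 407 of the 13962 protein-coding genes of the RefSeq gene table were named in a label (2.92%). Without the genes under study, 1 of 22 had a summit. This was dally, which encodes a heparan sulfate proteoglycan that binds Dpp, with a fold enrichment of 2.77 (rank 301) and a full core 10 bp from the summit. The lists were drawn up with results of these data known, so the shares describe the lists and no more.

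In a list of 29 genes of wing vein patterning, 9 had a summit (31%), and 8 of the 28 genes other than px. The share over all protein-coding genes was 2.92% (407 of 13962). The 9 include kn, the gene of Col itself. For its own enrichment in transcription regulators, the study notes that larger regulatory regions of developmental genes could account for part. Whether the size of the genes or their regulatory regions bears on the share of this list was not tested. Of the pathway that patterns the central intervein, ci, the transcription factor of Hedgehog signalling, had summits of 6.33 and 5.7. The kn gene had 3.55, 3.26 and 2.66. The embryos carried a transgenic copy of a col enhancer, and recombinant Col protein was used for elution, which left plasmid sequences that the authors removed from the reads. Whether reads of these copies enter any of the kn values was not tested. Of the Iroquois homeodomain genes, caup had 1 summit at 4.17 and mirr had 2, at 2.64 and 2.3. Of the genes of EGF receptor signalling, the ligand vn had 2.77 and the ETS factor pnt had 2.38. The Notch ligand gene Dl had 6.94, the highest of these genes after px, and the POU factor gene vvl had 3.45. The study's annotation placed the summits of ci, caup, mirr and vvl beside these genes and not within them, so their labels rest on position alone.

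Taking both lists together, 12 of 53 genes had a summit (22.6%), against 2.92% of all protein-coding genes, with the same limits. These 12 held 21 summits with a median fold enrichment of 3.33. Without px, tkv and sbb, 9 of 50 genes (18%) held 13 summits with a median of 3.26, of which 7 reached 3. A full core was present at 4 of these 13, those of dally, Dl, vn and pnt shown above, and at 4 of 8 for px, tkv and sbb. Over all summits it was present at 233 of 559 (41.7%), and with counts this small no difference is read from these shares. The 3 kn sites held 5, 4 and 4 of the 6 core bases from highest to lowest summit, and the ci, caup, mirr and vvl sites held 5 each.

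**Figure D5:**
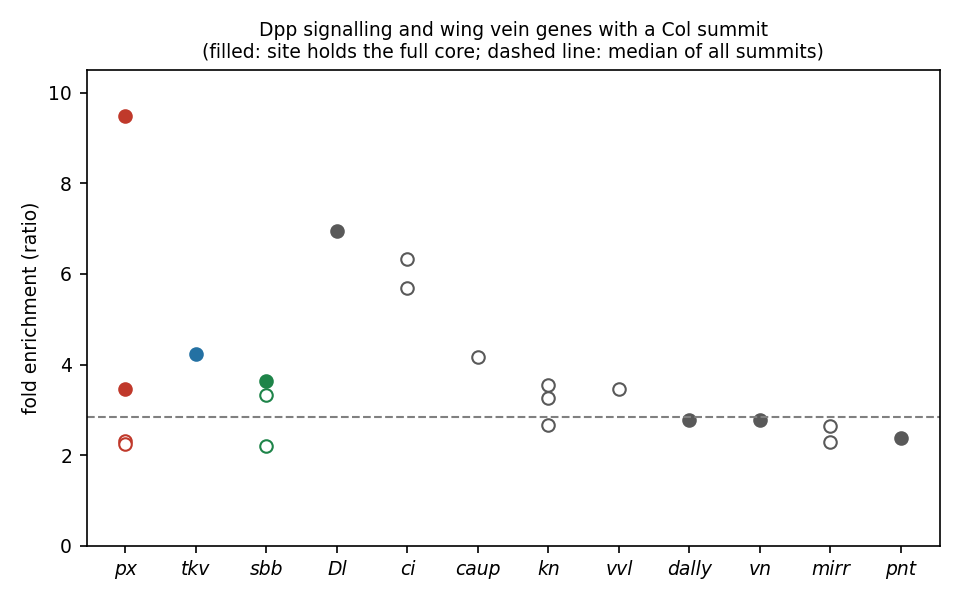
Fold enrichment, a ratio, of every summit of the 12 listed vein and Dpp genes that had one, with px, tkv and sbb first. Filled points mark sites with the full core, and the dashed line is the median of all summits, 2.85; the highest px summit, at 9.48, is above every other point and Dl, at 6.94, is next.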

How the data were processed

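Reads were mapped by the authors on the dm3 assembly (BDGP release 5). From 1 Col-IP library of pooled IPs they obtained peaks with SISSRs, at significance thresholds other than its defaults. They labelled each summit by position, with the gene it overlapped or the nearest transcription start, and changed a few labels by hand. The study allows that a bound region may act on other genes. They deposited 1 list of summits, each 1 base wide, with a fold enrichment, a linear ratio. The submitters' processing notes name Bowtie 0.12.7 and CASAVA 1.8. The positions share their last digit and so lie on a grid. Without read counts or replicate libraries, no test was made, and shares have 95% Wilson intervals or none.

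Summits were joined to the study's 15-base sites by the distance to the site centre (at most 100 bp). Labels were matched to the RefSeq table, which follows Release 6 and served for names only: of 414 names, 352 were current symbols. The join was tested on simulated data with 1 site per summit and no close summits. Of 559 planted sites, 559 were joined at their planted distance or, past the reach, left out. The planted mismatches of the core were recovered for 559 of 559. Python 3.11.15, numpy 2.4.6, scipy 1.17.1 and matplotlib 3.10.9 were used.

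The members and gene lists were chosen with earlier results of these data known. Named genes were px, tkv and sbb, listed genes with a summit, the 2 labels of equal summit number closest in highest fold enrichment to px and to sbb, the 2 ranks above and below tkv, the nearest other label, and the 3 sites most like that of tkv. Of these, 24 sites tied at 3 mismatches, 19 of them outside chromosome arm 2R, and the higher fold enrichment was taken, a choice made after the sites were seen. Oaz was named after its value was seen. A dm3 genome was not used here, so positions in exons or introns, promoters and strand are not given. The alternatives were a higher fold enrichment, merging of near summits, other reaches, a looser core and other name matching.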

Additional observations from a re-analysis of the deposited data

How the results depend on the processing

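A minimum fold enrichment of 3 left 5 of the 8 px, tkv and sbb summits, since fewer summits remain by construction. Allowing at most 1 mismatch in the core raised the members with a core to 7, against 4 with an exact core, and 475 of all 559 summits (85%) then had one as well. The other 9 alternatives moved the values by a smaller ratio. The largest shift among them was in the listed genes, of which 8 had a summit at a fold enrichment of at least 3, against 12 over all summits. Merging summits within 200 bp or including joint labels left 8 summits, the median was 4.24 over the highest summit of each gene and 3.4 after merging, and a reach of 50 bp left 6 members with a site and 4 with a full core. Other name matching left 12 listed genes with a summit. Matching through the synonyms of the RefSeq table was chosen after seeing the data. No paired analysis was possible because only 1 library was made per condition. Summits near the low end of the list are the least certain in rank, since several share a value, and the depth behind them is unknown. The lowest px and sbb summits are among them, and whether these reflect Col binding was not tested.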

Other observations

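The 2 ci summits lay 70 bp apart on chromosome 4 and shared 1 listed site, 80 and 10 bp from them, so their fold enrichments of 6.33 and 5.7 refer to nearly the same DNA. The neighbouring Iroquois genes caup and mirr had summits 48540 bp apart at the closest, with fold enrichments of 4.17 for caup and 2.3 for that of mirr, and the 2 mirr summits lay 4680 bp apart.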
